A study of Mus musculus with 8 samples.

Results

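The transcripts of 10 AP-1 and immediate early genes were compared between microglia of 4 Smad2/3 mutant and 4 control mice. The genes were taken by symbol and comprised the AP-1 subunits Fos, Fosb, Fosl2, Jun, Junb and Jund, the related factor Atf3, the zinc finger factors Egr1 and Klf6, and Ier2. Each matched 1 Ensembl row of the 55573 genes listed, and all 10 were among the 20153 genes with enough counts to be tested.

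Microglia, the resident macrophages of the brain, were sorted at postnatal day 60 and gave 1 RNA library per mouse. The mutants (SmadKO) were Smad2/3 fl/fl;Cx3cr1 Cre mice, in which Cre is expressed from the Cx3cr1 locus in microglia and related macrophages, so that the TGFβ effectors Smad2 and Smad3 are deleted in those cells. The controls (WT) are littermates called wild type in the record, whereas the study's methods describe controls generally as heterozygous floxed animals with Cre, so both groups may carry the Cre allele. All were on a C57BL6/J background. Levels are given as CPM, the counts scaled to a common library size, after TMM scaling, which adjusts the libraries to one another, and a value after ± is the SD over the 4 mice of a group. A gene was called when the adjusted p of edgeR's quasi-likelihood test, computed over all tested genes, was under 0.05.

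The libraries held 35639502 to 41946479 counts. Smad3 was lower in every mutant, at 9.61 to 35.1 CPM against 39.5 to 56.9 CPM in controls. Smad2 overlapped between the groups, at 42.7 to 75.9 CPM against 62.7 to 92.4 CPM, and a count over a whole gene need not follow the loss of single exons. Xist, transcribed from the inactive X chromosome, was at 99.5 to 183 CPM in controls and at most 0.562 CPM in mutants. The Y-linked Ddx3y was at most 0.224 CPM in controls and at 9.74 to 59.8 CPM in mutants. Eif2s3y, also Y-linked, was at most 0.323 CPM in controls and at 3.63 to 33.1 CPM in mutants. Mutant 2 was the lowest mutant for both, and the cause was not tested. Genotype and sex thus cannot be told apart in any comparison here. Of 8 microglial markers, which were detected in every library, 7 were called lower in mutants, and their summed level was 29616 to 44771 CPM in controls and 5680 to 7951 CPM in mutants. The markers differed in how far they fell. Aif1 overlapped between the groups, at 310 to 493 CPM in controls and 269 to 427 CPM in mutants. Cx3cr1, from whose locus Cre is expressed, was at 5456 to 8628 CPM in controls and 1278 to 1349 CPM in mutants. The part of the Cre allele in this difference was not tested. Csf1r was at 6151 to 10561 CPM in controls and 2336 to 4205 CPM in mutants, and P2ry12 at 4189 to 5979 and 139 to 203 CPM. By staining, the paper reports loss of this last marker in microglia of these mutants. In bulk RNA, fewer cells of a type and less RNA per cell cannot be told apart from a single marker, and their parts here were not tested.

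Immediate early genes are transcribed soon after a stimulus without new protein synthesis, through factors already present in the cell such as SRF with its Elk partners and CREB. AP-1 is a dimer of a Jun protein with a Fos, Jun or ATF protein that binds DNA through a basic leucine zipper (bZIP), and SMAD3 is known to act together with AP-1 at some TGFβ target genes. In microglia these genes are known to respond to inflammatory stimuli and to the cutting and dissociation of brain tissue. Here the brains were cut, filtered, spun through a Percoll gradient and sorted before RNA was taken, and the part of this handling in the levels was not tested.

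The 250 bases before the RefSeq transcription start (GRCm38.p6) are shown for Fos, Jun and Junb, the AP-1 subunits with the highest level per kilobase, as sequence context for the main AP-1 transcripts. Elements further upstream, such as the known serum response element of Fos, are outside these windows. Each window is written 5′ to 3′ on the strand of the gene, and capitals mark matches to the motifs searched. The windows lie at chr12:85473640-85473889 (plus strand) for Fos, chr4:95052223-95052472 (minus strand) for Jun and chr8:84978749-84978998 (minus strand) for Junb.
Fos: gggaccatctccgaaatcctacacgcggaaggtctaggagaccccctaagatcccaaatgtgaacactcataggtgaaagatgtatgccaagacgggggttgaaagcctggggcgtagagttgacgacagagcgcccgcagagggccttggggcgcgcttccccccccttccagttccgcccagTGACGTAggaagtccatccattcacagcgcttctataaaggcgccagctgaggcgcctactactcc
Jun: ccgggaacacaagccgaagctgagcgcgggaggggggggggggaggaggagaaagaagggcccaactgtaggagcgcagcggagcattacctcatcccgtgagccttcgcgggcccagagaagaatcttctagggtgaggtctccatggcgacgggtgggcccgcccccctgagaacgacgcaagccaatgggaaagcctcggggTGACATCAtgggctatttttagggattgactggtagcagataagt
Junb: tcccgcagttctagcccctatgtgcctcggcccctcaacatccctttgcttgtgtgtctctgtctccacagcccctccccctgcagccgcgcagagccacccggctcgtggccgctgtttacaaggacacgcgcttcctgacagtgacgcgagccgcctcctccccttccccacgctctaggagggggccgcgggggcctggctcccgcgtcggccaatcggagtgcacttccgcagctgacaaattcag

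Both strands were searched for the cyclic AMP response element TGACGTCA and its variant TGACGTA, the AP-1 site TGACTCA and its variant TGACATCA, the CArG box bound by SRF, the EGR sites GCGTGGGCG and GCGGGGGCG, and the SMAD palindrome GTCTAGAC. Of the 10 genes, 8 had a window. TGACGTA, held by 1.08% of the 32851 promoter windows of the reference, lay at bases -66 to -60 from the start of Fos and, on the opposite strand, at -9 to -3 of Atf3. TGACATCA, held by 2.93% of all windows, lay at -45 to -38 of Jun and -119 to -112 of Klf6. GCGGGGGCG, held by 2.57% of all windows, lay at -50 to -42 of Fosb and -79 to -71 of Fosl2. Junb matched none of the 8 motifs, nor did Jund, whose window at chr8:70697489-70697738 is not next to the start of the gene as counted here (70698949), so that it does not describe the promoter of that transcript. No window of the 8 genes held the other 5, whose shares of all windows were 4.46% for TGACTCA, 1.55% for TGACGTCA, 1.47% for the CArG box, 0.536% for GCGTGGGCG and 0.167% for GTCTAGAC. The windows of Atf3 (chr1:191183334-191183583) and Fosl2 (chr5:32136222-32136471) lie inside the genes as counted here and over an exon of each. Those genes start at 191218039 (Atf3, minus strand) and 32135801 (Fosl2, plus strand), so the positions given count from a RefSeq start further inside. The matches are descriptions of letters in these windows and not sites shown to be bound.

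The 10 genes spanned a wide range of levels, from Fos, among the most abundant transcripts of the sorted cells, to Fosl2, the least abundant of the 10. Together they took 3.00% to 5.75% of all counts in controls and 2.23% to 3.90% in mutants, and Fos alone took 1.505% to 2.46% and 1.16% to 2.08%. Per kilobase of merged exons, Fos was at 8447 ± 2478 CPM in controls and 6118 ± 1968 CPM in mutants, which ranked it 3 and 7 of 20153 genes. In controls Jun followed at 2040 ± 693 CPM per kilobase, then Atf3 at 1687 ± 759, Junb at 1531 ± 548, Egr1 at 1486 ± 534 and Ier2 at 1162.5 ± 357. Neighbours among these 5 differed by less than their SD between mice. Klf6 was at 581 ± 290, Jund at 173 ± 18.3, Fosb at 89.3 ± 25.4 and Fosl2 at 1.49 ± 0.440 CPM per kilobase. By this measure Fosl2 ranked 12748 of the 20153 genes in controls and 8846 in mutants. In mutants Egr1 stood lower in this order, at 426 ± 187 CPM per kilobase, beside Klf6 at 446 ± 126 and below Ier2 at 740 ± 231, and its rank among all tested genes was 145 against 41 in controls.

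**Figure D1:**
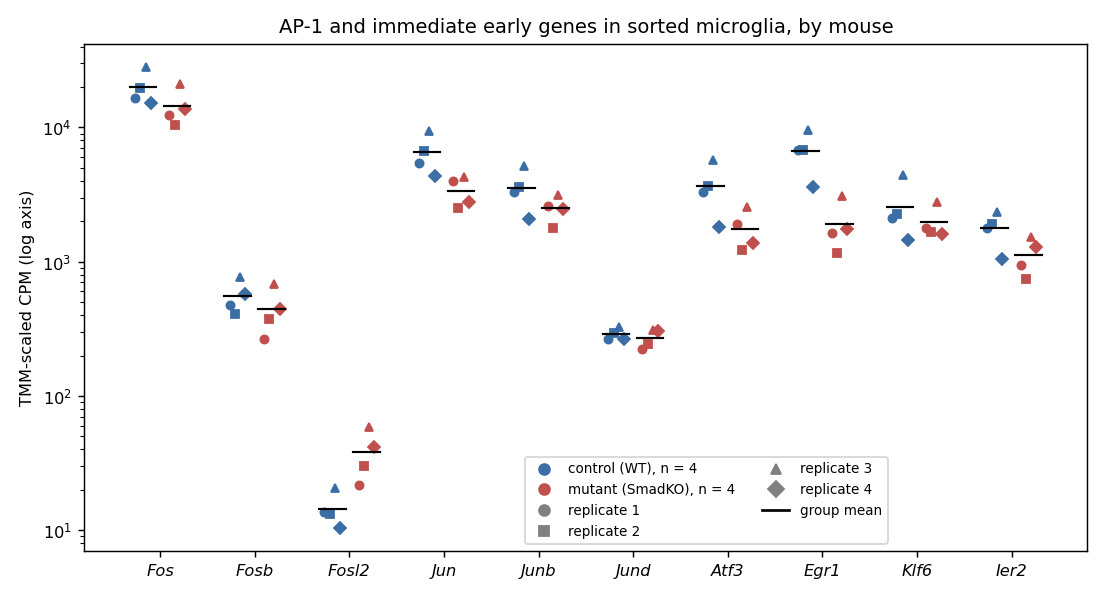
Each point is the TMM-scaled CPM of 1 gene in 1 mouse on a log axis, blue for the 4 controls and red for the 4 mutants, with a marker shape for each replicate number and a black bar at the group mean. The 4 mutants lie above all controls for Fosl2 and below all controls for Jun and Egr1, and the groups overlap for the other 7 genes.

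Of the 10 genes, 1 was called higher in mutants (Fosl2) and 1 was called lower (Egr1), where 4.36% of all tested genes were called higher and 7.97% lower. All 4 mutants lay above all 4 controls for 1 gene (Fosl2) against 9.04% of tested genes, and below them for 2 genes (Egr1 and Jun) against 13.0% of tested genes. The log2 fold change was below 0 for 9 of the 10, with Fosl2 the exception, against 49.4% of tested genes, and the median over the 10 was -0.48 against 0.01 over all tested genes. Among those 9, Egr1 alone was called. The direction turned for Jund with libraries scaled by their totals and for Klf6 without control 3. The 10 genes also followed one another across mice, so their directions are not 10 separate observations. The counts of calls, 1 gene of the 10 in each direction, are near their backgrounds.

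In the Fos family, Fosl2 was called higher in mutants, and Fos and Fosb were not called. Fos, the founding subunit of AP-1 (chr12:85473890-85477273, plus strand, ENSMUSG00000021250), was at 16481, 19585, 28169 and 15238.5 CPM in controls 1 to 4 and at 12297, 10501, 21046 and 13709.7 CPM in mutants 1 to 4. The groups overlapped, since mutant 3 exceeded 3 of the controls and the other 3 mutants lay below every control. The log2 fold change of mutants over controls was -0.47 (SE 0.28, 95% interval -1.09 to 0.16, edgeR adjusted p = 0.311).

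Fosb, a subunit known for its lasting splice form in neurons (chr7:19302696-19310051, minus strand, ENSMUSG00000003545), was at 477, 407, 772 and 575 CPM in controls and 267, 375, 678 and 444 CPM in mutants. Control 3 and mutant 3 were the highest of their groups, and the groups overlapped. Its log2 fold change was -0.34 (SE 0.30, 95% interval -1.03 to 0.35, edgeR adjusted p = 0.515).

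Fosl2, which encodes the Fos-related subunit FRA2 (chr5:32135801-32157842, plus strand, ENSMUSG00000029135), was at 13.6, 13.25, 20.45 and 10.4 CPM in controls and 21.6, 29.9, 59.0 and 41.99 CPM in mutants. Every mutant lay above every control, although control 3 and mutant 1 differed by little. The level was 2.64 times that of controls, with a log2 fold change of 1.40 (SE 0.34, 95% interval 0.64 to 2.16, edgeR adjusted p = 0.0271). Each library held at least 387 Fosl2 counts. The direction held in all 8 fits that left out 1 mouse, but the call was lost in 5 of them. The edgeR adjusted p was then 0.0612 without control 1, 0.08015 without control 2, 0.0548 without control 4, 0.0584 without mutant 3 and 0.0627 without mutant 4.

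In the Jun family the transcripts were at lower mean levels in mutants and none was called. Jun (chr4:95049034-95052222, minus strand, ENSMUSG00000052684), which encodes the c-Jun subunit, was at 5474, 6728.5, 9480.2 and 4340.4 CPM in controls and 3964, 2503, 4299.5 and 2771 CPM in mutants. Every mutant lay below every control, with control 4 and mutant 3 nearly level. Mutants over controls, the log2 fold change was -0.94 (SE 0.28, 95% interval -1.58 to -0.31), with an unadjusted p of 0.00849 and an edgeR adjusted p of 0.0601. It was called with DESeq2 (adjusted p = 0.0127) and in edgeR's test without control 4 (adjusted p = 0.0421), and over all 8 fits that left out 1 mouse the edgeR adjusted p was 0.0421 to 0.149. Of its 3189 exon bases, 232 are shared with Junos on the opposite strand. Junos was at 1.655 to 12.6 CPM, and reads in the shared stretch cannot be told apart in a library without strand.

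Junb, a subunit that can restrain c-Jun (chr8:84974484-84978718, minus strand, ENSMUSG00000052837), was at 3290.1, 3597, 5133 and 2069 CPM in controls and 2599, 1786, 3115 and 2459.8 CPM in mutants. Control 4 lay below 3 of the mutants, so the groups overlapped. On the log2 scale the fold change was -0.50 (SE 0.28, 95% interval -1.14 to 0.14, edgeR adjusted p = 0.284). The gene shares 173 bases with Prdx2, which lies on the opposite strand and was at 126.5 to 347 CPM. Jund, the subunit that is broadly expressed in unstimulated cells (chr8:70698949-70700616, plus strand, ENSMUSG00000071076), was at 263, 296, 328 and 265 CPM in controls and 224, 244, 312 and 302 CPM in mutants. It varied least between mice of the 10 genes, and its log2 fold change was -0.09 (SE 0.16, 95% interval -0.45 to 0.27, edgeR adjusted p = 0.763). The log2 fold change was 0.03 when libraries were scaled by their totals, so the direction of Jund depended on the scaling. Gm11175, which overlaps 877 of the 1668 exon bases of Jund on the other strand, had 0 counts in every library.

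Expressed per kilobase as a share of the summed level of the 6 AP-1 subunits, Fos made up 67.45% to 72.1% in controls and 67.2% to 74.9% in mutants. The Jun family together made up 26.9% to 31.8% in controls and 24.2% to 32.2% in mutants, so the balance of Fos to Jun transcripts overlapped between the groups. Fosl2 was the smallest share, at 0.0112% to 0.0135% in controls and 0.02865% to 0.0541% in mutants. The subunit called higher in mutants was thus a small part of the AP-1 transcripts in both groups.

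Atf3, a bZIP factor that pairs with Jun proteins and is known as a stress-induced repressor (chr1:191170296-191218039, minus strand, ENSMUSG00000026628), was at 3309, 3663, 5765 and 1799 CPM in controls and 1897, 1225, 2547 and 1379.5 CPM in mutants. Control 4 lay below mutants 1 and 3, and the other 3 controls lay above every mutant. Its log2 fold change was -1.04 (SE 0.36, 95% interval -1.86 to -0.23), with an unadjusted p of 0.0178 and an edgeR adjusted p of 0.0939. It was called with DESeq2 (adjusted p = 0.0316) and in edgeR's test without control 4 (adjusted p = 0.0391), and the edgeR adjusted p ran up to 0.233 when another mouse was left out.

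Egr1, a zinc finger factor induced by SRF and MAP kinase signalling (chr18:34859823-34864984, plus strand, ENSMUSG00000038418), fell in mutants. It was at 6797, 6743, 9485 and 3627 CPM in controls and 1629, 1162, 3108 and 1745 CPM in mutants. Every mutant lay below every control, and the highest mutant (mutant 3) and the lowest control (control 4) were nearest to each other. Controls were 3.49 times the mutant level, and the log2 fold change was -1.80 (SE 0.37, 95% interval -2.63 to -0.97, edgeR adjusted p = 0.0134). The call held in all 8 fits that left out 1 mouse, with a log2 fold change of -2.14 to -1.58 and an edgeR adjusted p of 0.00723 to 0.0421, and under the 7 other alternatives run.

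Klf6, a zinc finger factor of the Krüppel-like family (chr13:5861482-5870394, plus strand, ENSMUSG00000000078), was at 2116, 2256, 4387 and 1442 CPM in controls and 1774, 1675, 2782 and 1609 CPM in mutants. The groups overlapped, and control 3 and mutant 3 stood far above the other mice of their groups. Mutants over controls, the log2 fold change was -0.38 (SE 0.34, 95% interval -1.15 to 0.39, edgeR adjusted p = 0.516), and it was 0.02 without control 3, so that its direction rested on that mouse. Ier2, a nuclear protein without a bZIP domain (chr8:84661331-84662852, minus strand, ENSMUSG00000053560), was at 1779, 1911, 2348 and 1040.1 CPM in controls and 949, 738, 1529 and 1291 CPM in mutants. Control 4 lay below mutants 3 and 4. On the log2 scale the fold change was -0.65 (SE 0.30, 95% interval -1.32 to 0.02, edgeR adjusted p = 0.187).

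**Figure D2:**
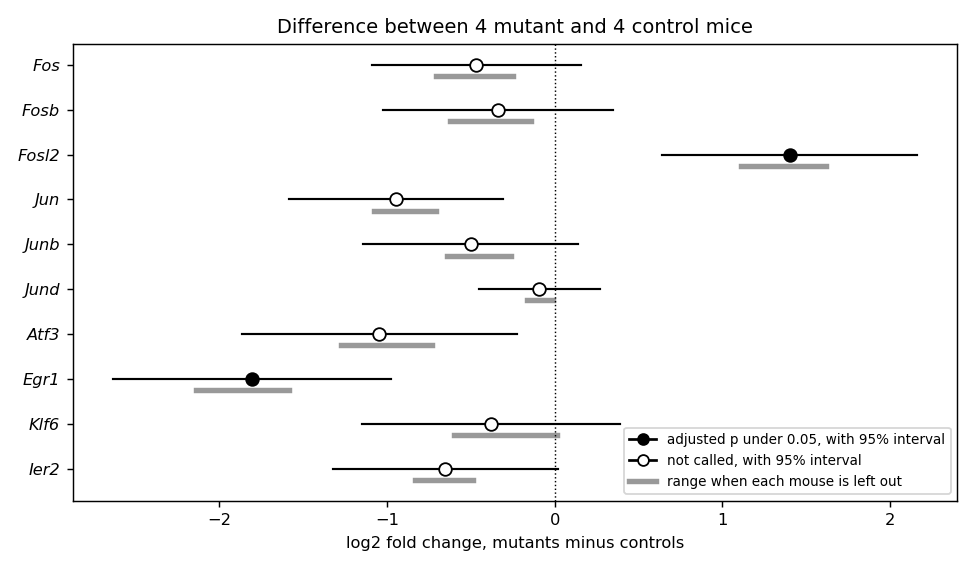
Circles give the log2 fold change of mutants over controls for each gene, filled where the edgeR adjusted p was under 0.05, with its 95% interval as a black line and, in grey, the range when each mouse was left out in turn. Fosl2 at 1.40 and Egr1 at -1.80 are filled, the intervals of Jun and Atf3 also lie below 0, and the grey bar of Klf6 crosses 0.

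Within a library, the ratio to Fos separated the groups for Egr1 and Fosl2 and overlapped for the other 6 genes taken. Egr1 was 0.412, 0.344, 0.337 and 0.238 times the CPM of Fos in controls 1 to 4 and 0.132, 0.111, 0.148 and 0.127 times in mutants 1 to 4. No mutant reached the lowest control, and the mean ratio in controls was 2.57 times that in mutants. The ratio of Fosl2 to Fos was 0.000677 to 0.000825 in controls and 0.001755 to 0.00306 in mutants, 3.60 times as high in mutants with no overlap. Junb over Fos was 0.136 to 0.1996 in controls and 0.148 to 0.211 in mutants, and the ranges of Jun, Atf3, Ier2, Klf6 and Fosb over Fos overlapped as well. These ratios are descriptions of the same counts as above and carry no test.

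**Figure D3:**
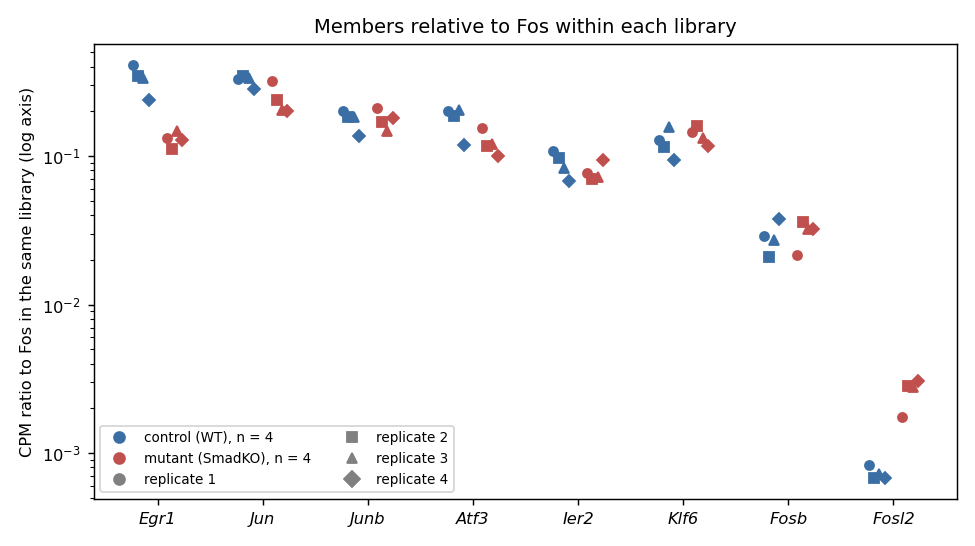
Each point is the CPM of a gene divided by the CPM of Fos in the same library, on a log axis, blue for controls and red for mutants, with a marker shape for each replicate number. The mutants lie below the controls for Egr1 (0.111 to 0.148 against 0.238 to 0.412) and above them for Fosl2, and the other 6 ratios overlap.

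Mice of the same group differed in how much of the whole set they expressed. Control 3 was the highest control for 10 of the 10 genes, while it was the highest control for 34.2% of the 10345 tested genes whose mean log2 CPM was 3 or more. Mutant 3 was the highest mutant for 10 of the 10 against 26.5% of those genes. Control 4 was the lowest control for 8 of the 10 (27.3% of those genes) and mutant 2 the lowest mutant for 6 of the 10 (21.6%). Averaged over the 10 genes, control 3 deviated from the control mean by 0.58 and control 4 by -0.51 in log2 CPM, and mutant 3 deviated from the mutant mean by 0.54. With libraries scaled by their totals, control 3 was the highest control for 9 of the 10 and mutant 3 the highest mutant for 10 of the 10.

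The spread between mice of a group, as the SD of log2 CPM, had a median of 0.484 over the 10 genes and of 0.345 over the 10345 genes. Jund had the smallest of the 10 at 0.195 and Atf3 the largest at 0.594. Mutant 3 was also the mutant with the highest Smad3 (35.1 CPM, where the others had 9.61 to 17.5 CPM), and the part of this in its levels was not tested. After each group's mean was subtracted, the 10 genes followed one another across the 8 libraries, with a Pearson r to the mean of the other 9 that ran from 0.586 for Fosb to 0.966 for Fos. This is a description over 8 libraries that share their scaling, not a test.

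**Figure D4:**
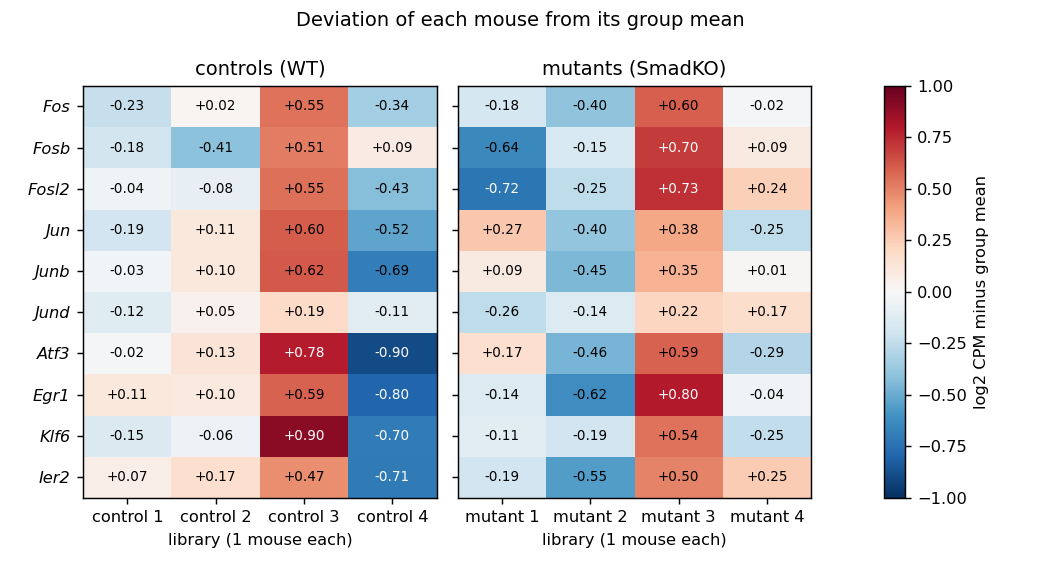
Each cell gives the log2 CPM of a gene in 1 mouse minus the mean of its group, red above and blue below, for the 4 controls on the left and the 4 mutants on the right. The columns of control 3 and mutant 3 are above their group mean for 10 of the 10 genes.

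The genes outside the set whose deviations most resembled those of the 10 genes were Ccnl1 (r = 0.988 over 8 libraries), Tob2 (0.987), Bud13 (0.980), Nlrp3 (0.978), Gm5512 (0.977), Il7r (0.974), Ing2 (0.971) and Sptlc2 (0.968). Ccnl1 encodes cyclin L1 and Nlrp3 an inflammasome sensor. Of these 8, Il7r, which encodes the interleukin-7 receptor, was called between the groups, with 66.4 CPM in controls and 7.65 CPM in mutants (log2 fold change -3.12, edgeR adjusted p = 0.000114).

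Of 34 other immediate early genes listed, 33 were tested, 3 were called higher, 4 lower and 26 not, where 4.36% and 7.97% of all tested genes were called higher and lower, and their median log2 fold change was -0.13. Npas4, the remaining one and a factor known from active neurons, had 0 counts in every library, which allows up to 3 counts per group. Egr2, a relative of Egr1, was at 97.0 ± 55.05 CPM in control mice and fell to 15.5 ± 6.43 CPM in the mutants (log2 fold change -2.65, SE 0.46, edgeR adjusted p = 0.00606), with every mutant below every control. Egr3 was at 8.15 against 1.48 CPM and was not called (log2 fold change -2.46, edgeR adjusted p = 0.0967).

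Also called lower were Sgk1, a serum-induced kinase, at 2411 ± 804.5 against 564 ± 204 CPM, Rhob, a small GTPase, at 629 ± 134 against 205 ± 25.1 CPM, and Ier5 at 982 ± 318 against 405 ± 78.95 CPM. Called higher were Gadd45g, a growth arrest gene, at 61.0 ± 1.57 against 253 ± 17.8 CPM, Pim1, a survival kinase, at 11.4 ± 2.02 against 47.8 ± 9.14 CPM, and Ier3 at 196 ± 61.1 against 626 ± 233 CPM. All of these 7 genes were called in all 8 fits that left out 1 mouse. The abundant Dusp1, the phosphatase that ends MAP kinase signalling, was at 10697 against 11167 CPM (log2 fold change 0.06, edgeR adjusted p = 0.931), and Zfp36 and Nr4a1 had log2 fold changes of -0.26 and -0.13 without a call. Of the 33 genes tested, 16 had an unadjusted edgeR p under 0.05. Besides Egr3, the uncalled ones were Ppp1r15a, Dusp6, Btg2 and Klf2 (log2 fold change -1.176, -0.985, -0.776 and -0.776). Ier5l, Rgs1, Zfp36l1 and Nfkbia went the other way (1.27, 1.045, 0.882 and 0.669).

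Among 21 other bZIP factors, 4 were called higher and 1 lower, against 4.36% and 7.97% of all tested genes. Their median log2 fold change was -0.19. Jdp2, a partner and repressor of Jun, rose from 34.4 ± 19.3 to 186 ± 84.0 CPM (log2 fold change 2.44, SE 0.43, edgeR adjusted p = 0.00701), and Batf2 from 2.45 ± 1.42 to 12.9 ± 5.16 CPM. Both were called in all 8 fits that left out 1 mouse, as was the small Maf protein gene Mafg, which fell from 140.1 ± 33.1 to 73.4 ± 4.77 CPM. Atf5 (1.09 ± 0.304 to 3.745 ± 2.07 CPM) and Maf (85.6 ± 25.6 to 184.5 ± 67.5 CPM) were called higher as well. The call of Atf5 held only in the fit without mutant 1 (edgeR adjusted p 0.0317 to 0.127 over the 8 fits), and that of Maf only without control 4 or mutant 1 (0.0198 to 0.125).

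Of 25 upstream kinases and factors, 2 were called higher and 5 lower, against 4.36% and 7.97% of all tested genes. Their median log2 fold change was -0.32. The ribosomal S6 kinase gene Rps6ka1 fell from 682 ± 120 to 142 ± 36.8 CPM (log2 fold change -2.26, SE 0.22, edgeR adjusted p = 0.000341), and Elk3, an SRF partner, from 47.7 ± 8.48 to 20.9 ± 1.65 CPM, both in all 8 fits that left out 1 mouse. Mapk14, which encodes the p38α kinase, fell from 210.3 ± 53.5 to 81.3 ± 32.9 CPM, Map2k1, which encodes MEK1, from 160.2 ± 24.9 to 93.9 ± 14.7 CPM, and Map3k7, which encodes TAK1, from 30.25 ± 5.72 to 17.7 ± 3.63 CPM. Map3k1 was called higher at 7.52 ± 1.81 against 15.7 ± 3.01 CPM, as was Crem, a CREB relative, at 9.98 ± 2.15 against 30.55 ± 16.25 CPM. These last 5 calls depended on single mice. Mapk14 and Map2k1 lost theirs without control 2, control 3, mutant 2 or mutant 3 (edgeR adjusted p up to 0.0580 and 0.0645), Map3k7 kept its call only without mutant 3 (up to 0.123), Map3k1 only without control 4, mutant 1 or mutant 4 (up to 0.0759) and Crem only without mutant 1 or 2 (up to 0.0904). Srf, Creb1 and Elk1 were not called (log2 fold change -0.59, -0.19 and 0.94, edgeR adjusted p = 0.141, 0.575 and 0.107).

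Of 11 genes known as AP-1 targets that are reported here, 5 were called higher in mutants, where 4.36% of all tested genes were called higher. The median log2 fold change of the 11 was 1.24. The list was chosen with earlier results of these data known, so its count and median are descriptions and not a test. Mmp13, a collagenase, was at most 0.224 CPM in controls, with 9 counts over the 4 libraries, and at 48.6 to 116.5 CPM in mutants (edgeR adjusted p = 9.43e-05). Cd44 rose from 18.5 ± 7.67 to 139.5 ± 41.5 CPM, Il1b from 44.5 ± 24.4 to 278 ± 174 CPM, the chemokine gene Ccl2 from 124 ± 22.7 to 365 ± 159 CPM and Tnf from 75.4 ± 7.635 to 174 ± 47.9 CPM. Without control 3, Il1b missed the call (edgeR adjusted p = 0.0516), and the other 4 were called in all 8 fits that left out 1 mouse.

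**Figure D5:**
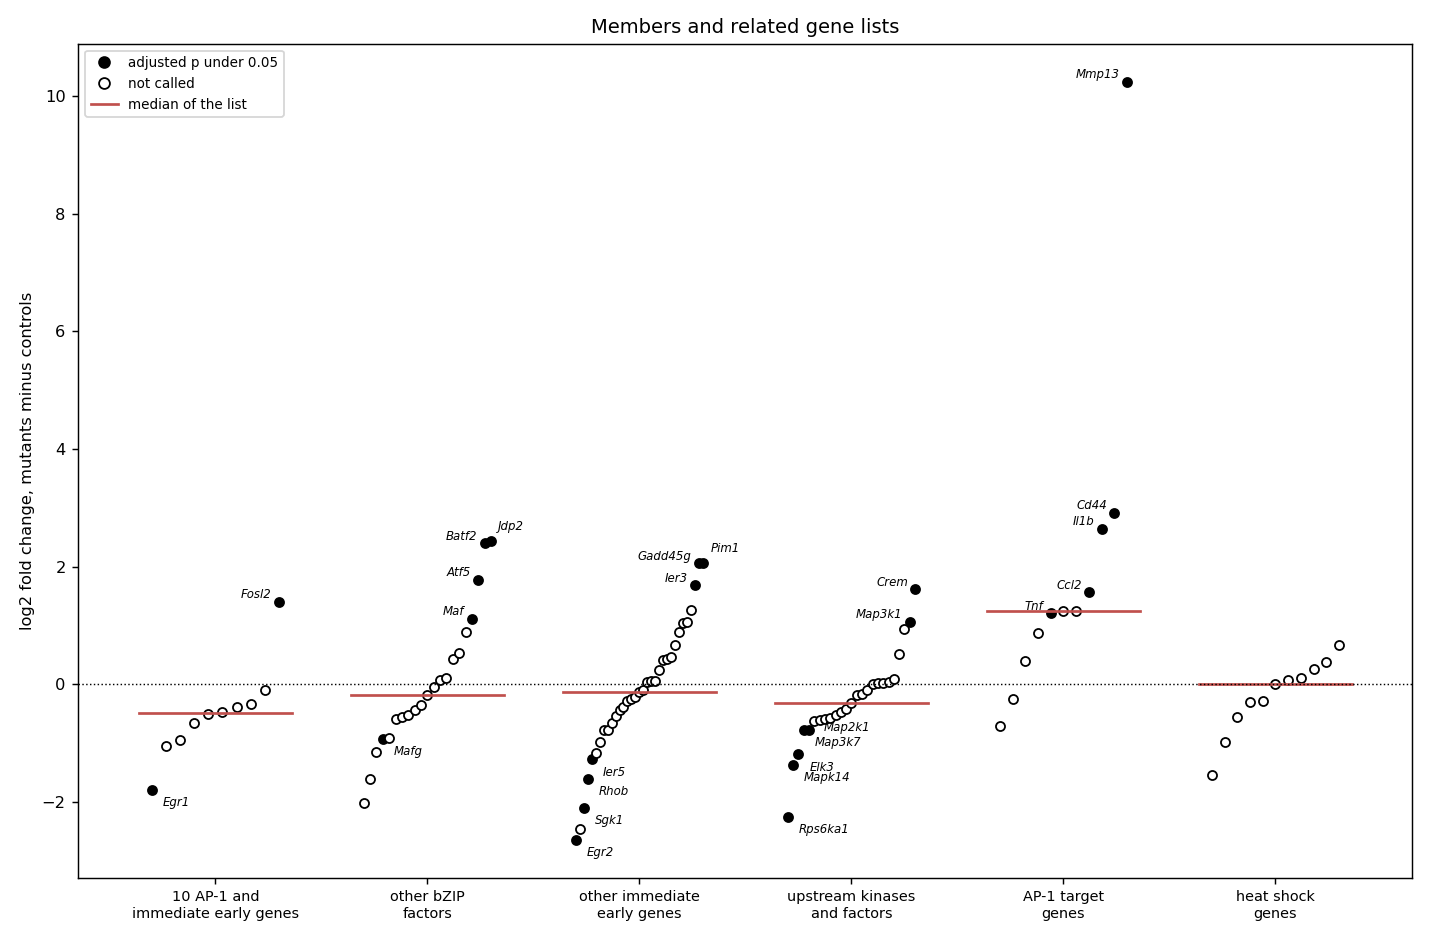
Each circle is 1 tested gene placed by its log2 fold change of mutants over controls, sorted within its list and filled and named where the edgeR adjusted p was under 0.05, with a red line at the median of the list. The median is -0.48 for the 10 AP-1 and immediate early genes and 1.24 for the 11 AP-1 targets reported, and no heat shock gene is filled. All lists were chosen with earlier results of these data known, so the medians are descriptions.

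Heat shock genes, which cell stress also induces, were listed beside them. None of the 11 was called by edgeR in either direction, 2 had an unadjusted p under 0.05, and their median log2 fold change was 0.00. DESeq2 called 1 of them lower, as did edgeR with the filter in all 8 libraries and without control 4. Dnajb1 was at 1034 against 354 CPM (log2 fold change -1.55, edgeR adjusted p = 0.0542). Among controls, control 3 was the highest for every heat shock gene listed except Hspe1 and Hspd1. Hspa1b was at 3091 CPM in control 3 and at 244 to 997 CPM in the other controls. Mutant 3 was the highest mutant for Hspa1a, Hspa1b, Hspa8, Dnaja1 and Dnajb1 but not for the others. The part of cell stress in the levels of the AP-1 and immediate early genes was not tested.

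Transcripts of other cells were present in both groups. The summed level of 6 neuronal markers was 30.1 to 286 CPM in controls and 83.6 to 279.5 CPM in mutants, that of 4 oligodendrocyte markers 536 to 3796 and 948 to 3134 CPM, and that of 4 monocyte and neutrophil markers 440 to 1583 and 242 to 761 CPM, and no gene of these lists was called. Within each group, the summed neuronal and oligodendrocyte markers were highest in control 1 and mutant 1. Of 4 T cell markers 2 were called higher in mutants, with summed levels of 8.39 to 28.8 CPM in controls and 39.0 to 83.8 CPM in mutants. The astrocyte list differed through Slc1a3, at 1084 to 1758 CPM in controls and 25.8 to 170 CPM in mutants, and the 4 endothelial markers summed to 14.1 to 24.3 and 2.895 to 11.7 CPM, with Cldn5 at 0 in 4 of the 8 libraries. Per the methods, live single tdTomato+ cells were analysed for CD45 and CD11b, a gate that would remove neurons, glia other than microglia, endothelial cells and T cells. The part of such transcripts in the levels of the 10 genes was not tested.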

How the data were processed

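RNA from sorted microglia was sequenced for 4 Smad2/3 mutant (SmadKO1 to SmadKO4) and 4 control (WT1 to WT4) mice, which were grouped by their labels. Alignment by the authors used Rsubread and the mm10 genome, and featureCounts gave the raw counts per gene, which were taken as deposited. The kit is unstranded per the labels and the methods, which name different kits, and the versions and annotation of the counting are not given in the sources used here. The authors' deposited table of DESeq2 1.28 results (fold changes and p-values) was not used. The methods place these mutant data in another deposit, and the libraries were taken to be that experiment.

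Symbols, exons and lengths came from GENCODE M21 (55394 of 55573 IDs matched), and promoter sequences from RefSeq. Genes that reached 10 counts in 4 or more libraries were tested with edgeR 4.0.16 in R 4.3.3 (TMM, estimateDisp, glmQLFit, glmQLFTest), all 8 libraries in 1 fit without covariates, with Benjamini-Hochberg adjustment over 20153 genes. The biological coefficient of variation was 0.542. The code was tested on simulated data. Alternatives were DESeq2 1.42.0, its size factors, library totals, no filter, the filter in all 8 libraries, a replicate block and each mouse left out. A fit on autosomal genes was added after the data were seen. The 10 genes and all lists were chosen with earlier results of these data known. A gene of the AP-1 target list is not reported here, and counts and medians of that list leave it out. All 10 genes, every called gene of the other lists, the label checks and the 8 most alike genes are named by rule. The other uncalled genes (Egr3, Dusp1, Zfp36, Nr4a1, Ppp1r15a, Dusp6, Btg2, Klf2, Ier5l, Rgs1, Zfp36l1, Nfkbia, Srf, Creb1, Elk1, Npas4, Dnajb1 and the other heat shock genes named), and the overlapping and marker genes given by value, were named after their values were seen. A log2 CPM has a prior count of 2.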

Additional observations from a re-analysis of the deposited data

Results flagged for a closer look

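In a group of 4 mice, a mouse was taken as far from the others when its gap to the nearest, as a share of the group's range, exceeded Dixon's critical value. Chance alone gives about 1 such case in 20 groups, and 3 were found among 68 groups of the genes named. Klf6 was at 2782.1 CPM in mutant 3, against 1609 to 1774 CPM in the other mutants. Batf2 was at 20.62 CPM in mutant 4, against 9.69 to 10.7 CPM in the others. Mmp13 was at 0.2238 CPM in control 3, against at most 0.02585 CPM in the other controls. The controls together held 9 Mmp13 counts, so this case rests on very few reads, where the rate of 1 in 20 need not hold.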

How the results depend on the processing

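Of the 10 genes, Egr1 and Fosl2 kept their call and direction under DESeq2, its size factors, library totals, both filters, the replicate block and autosomal genes only. Leaving out each mouse gave 0 to 1 of the 10 genes higher and 1 to 3 lower, 525 to 1024 and 1005 to 1587 over all genes, 2 to 4 and 1 to 2 of the bZIP factors, 3 to 4 and 4 to 6 of the other immediate early genes, 0 to 2 and 2 to 4 of the upstream genes, 4 to 5 of the reported AP-1 targets higher, and 0 to 0 and 0 to 1 of the heat shock genes. Over all genes, 878 were called higher and 1607 lower with all 8 libraries. Those counts were 525 and 1047 without control 2, 562 and 1005 without control 3, and 573 higher without mutant 2. Each such fit lacked 1 library, and the count called higher rose to 1024 without control 4 and to 912 without mutant 1. DESeq2 called 2089 genes higher and 2662 lower, and 3 of the 10 genes, 4 bZIP factors, 8 other immediate early, 9 upstream and 1 heat shock gene lower, with 6 other immediate early genes higher. Library totals also gave 6 of these higher and shifted the median of all genes by 0.12 (log2). No filter gave 2 bZIP factors higher. The filter in all 8 libraries gave 3 bZIP factors and 1 heat shock gene lower and 6 other immediate early genes higher, and left out Mmp13. The direction turned for Klf6 without control 3 (0.016, and -0.597 to 0.016 over the mice left out) and for Jund with library totals (0.025). The causes were not tested.

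The replicate numbers were not taken to pair the mice, because no label says so and the correlation of deviations was 0.166, 0.018, 0.144 and 0.114 for numbers 1 to 4. The mice of numbers 1, 3 and 4 correlated best with their own number, and those of number 2 did not. Whether the numbers stand for pairs is thus not known. With the replicate block, 3 of the 10 genes were lower (Egr1, Jun with adjusted p = 0.0388, Atf3 with adjusted p = 0.0413, edgeR), as were 4 bZIP factors and 1 heat shock gene, 6 other immediate early genes were higher, and 0 upstream genes were higher. Il1b, Atf5, Map3k1 and Crem, called without the block, were not called with it (edgeR adjusted p = 0.0669, 0.119, 0.0672 and 0.0925).

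These counts rest on 4 mice per group, so calls near the threshold move with single mice. The counts are deep for all 10 genes, with at least 387 in any library, and counting error is small beside the spread between mice.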
